A study of Mus musculus with 6 samples.

Results

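A set of 9 genes of the myostatin and activin pathway were followed in mouse biceps muscles that had lost their nerve shortly after birth. They were myostatin (Mstn), follistatin (Fst), the follistatin-related genes Fstl1 and Fstl3, the receptor genes Acvr2a, Acvr2b and Acvr1b, and the signal transducers Smad2 and Smad3. They were chosen by name, as the rows of the deposited expression table whose symbol is one of these, and all 9 stood among its 13105 genes. A filter of at least 1 TPM in at least 3 of the 6 libraries kept 12268 genes for testing, among them 8 of the 9. Acvr2b did not pass, and Fstl3 passed through its denervated libraries, since only 1 control library reached 1 TPM. TPM is an abundance corrected for transcript length, with a fixed total over all transcripts of each library.

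The samples were whole biceps muscles of 3 CD-1 mice, an outbred stock. In each mouse the brachial plexus of one forelimb, labelled C5-T1, was excised on postnatal day 5. Both biceps were taken on postnatal day 26, 3 weeks after the injury, which gave 3 denervated and 3 contralateral control libraries from the same animals. The control is therefore the other limb of an operated mouse, and the labels name no transgene, drug or unoperated animal. The study set out to compare a muscle that grows after birth with one whose growth is arrested and that goes on to contracture.

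Myostatin is a secreted ligand of the transforming growth factor beta family that is made mainly by skeletal muscle and limits muscle mass, and animals that lack it are heavily muscled. It binds the type II receptors encoded by Acvr2b and Acvr2a, which recruit a type I receptor such as that encoded by Acvr1b, and this phosphorylates Smad2 and Smad3, which then act with Smad4 on target genes. Follistatin binds myostatin and activins outside the cell and keeps them from their receptors.

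The deposited values rose in denervated muscle for most genes, so each comparison is given on 2 scales. On the deposited log2(TPM + 1) scale the median of all tested genes was 0.71 higher in denervated than in control muscle. After median-of-ratios scaling, which divides each library by a factor set by its typical gene, that median was 0.01. The factors lay between 0.697 and 0.789 for control and between 1.27 and 1.60 for denervated libraries. Below, a gene rose or fell only if limma called it in the same direction on both scales, at a Benjamini-Hochberg adjusted p under 0.05 over all tested genes. All 1922 genes called higher after scaling were also called higher on the deposited scale. All 552 genes called lower on the deposited scale were also called lower after scaling. A rise thus rests on the scaled call and a fall on the deposited call. The myofibre markers Acta1, Ckm, Ttn and Myh4 summed to 14191 to 14669 TPM in control and to 7809 to 10924 TPM in denervated libraries, which fits the label of skeletal muscle. In whole muscle, fewer cells of a type and less RNA per cell cannot be told apart.

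Of the 8 tested genes, 4 rose in denervated muscle, namely Fst, Fstl3, Acvr2a and Smad3, and none fell on both scales. Over all tested genes 15.7% rose and 4.5% fell on both scales. The filter on low values bears on this count. Fstl3 passed it through its denervated libraries, while Acvr2b reached 1 TPM in 2 control and 0 denervated libraries and was left out. With no filter Acvr2b was called lower on both scales (limma, adjusted p = 0.0387 and 0.00424). On the deposited scale alone 7 of the 8 were called higher, against 69.9% of all tested genes. After scaling alone 4 were called higher and 1, Mstn, was called lower, against 15.7% and 18.6% of all tested genes. The median log2 fold change of the 8 was 1.38 on the deposited scale and 0.55 after scaling.

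**Figure D1:**
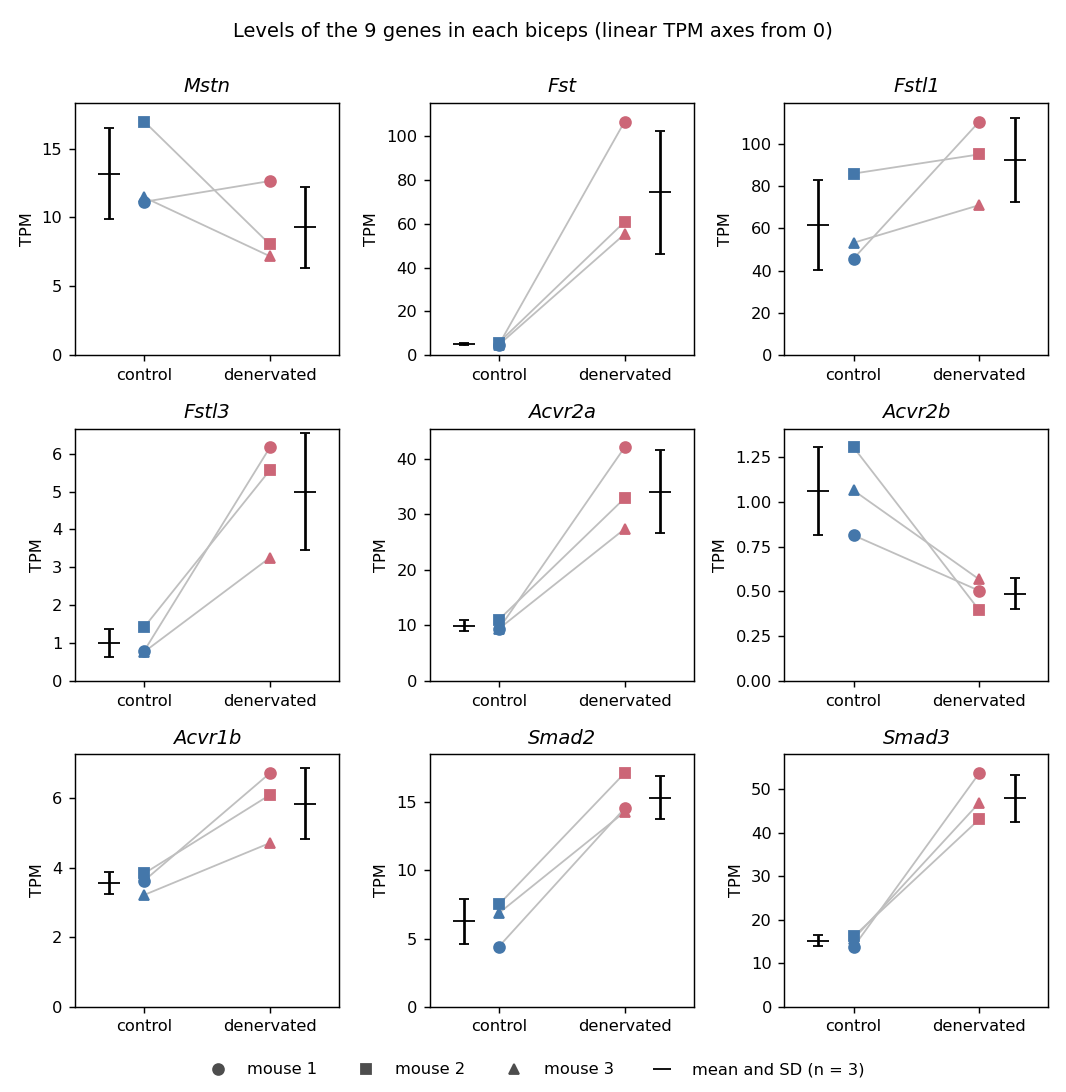
Level of each of the 9 genes in TPM (linear axes from 0) in the control and denervated biceps of mice 1 to 3, with lines joining the muscles of a mouse and bars for the mean and SD (n = 3). Fst, Fstl3, Acvr2a, Acvr1b, Smad2 and Smad3 lie higher in every denervated muscle than in any control muscle, Acvr2b lies lower, and Mstn and Fstl1 overlap. Of all tested genes, 71.4% lie higher and 4.96% lower in the same way.

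Myostatin itself did not follow the general rise of the table. Its gene lies on chromosome 1 from 53061640 to 53068079 of GRCm38, on the plus strand, in the GENCODE annotation, which also gives the places below. Mstn measured 11.1, 17.0 and 11.5 TPM in the control and 12.6, 8.04 and 7.18 TPM in the denervated muscles of mice 1, 2 and 3. The denervated level was above the control level in mouse 1 and below it in mice 2 and 3, and the groups overlapped. The mean was 13.2 ± 3.27 TPM in the control and 9.28 ± 2.94 TPM in the denervated group (SD, n = 3). The log2 fold change on the deposited scale was -0.48 ± 0.23 (SE), which limma did not call (adjusted p = 0.0855).

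After scaling, Mstn measured 15.4, 21.5 and 16.4 in control and 7.91, 6.31 and 5.64 in denervated muscle, in scaled TPM, and the groups did not overlap. The scaled log2 fold change was -1.30 ± 0.16 (SE), with an adjusted p of 0.000933 in limma. Among all tested genes, 24.4% had every scaled denervated value below every control value. The deposited fold change moved both ways when libraries were left out. Without the denervated library of mouse 1 it was -0.70 (limma, adjusted p = 0.0222), and without both libraries of mouse 1 it was -0.80 (limma, adjusted p = 0.0278), each called lower. Without both libraries of mouse 2 it was -0.22 (limma, adjusted p = 0.446), without control replicate 2 alone -0.29 (limma, adjusted p = 0.266), and without denervated replicate 3 -0.33 (limma, adjusted p = 0.248). In the authors' deposited table the adjusted p of Mstn was 0.247. None of the 31-base stretches of Mstn transcripts occurs in another annotated gene.

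Follistatin, on chromosome 13 from 114452290 to 114458951, showed the largest rise of the 9 genes. Fst measured 4.85, 5.77 and 4.76 TPM in the control muscles and 107, 60.9 and 55.3 TPM in the denervated muscles of mice 1, 2 and 3. Every denervated muscle was far above every control muscle, and mouse 1 had the highest denervated level. The means were 5.12 ± 0.558 and 74.3 ± 28.2 TPM (SD, n = 3), a ratio of 14.5. The log2 fold change was 3.56 ± 0.23 (SE) on the deposited scale (limma, adjusted p = 6.87e-06) and 2.73 ± 0.16 after scaling (limma, adjusted p = 3.61e-05). By size of log2 fold change Fst ranked 36 of 12268 genes on the deposited scale and 40 after scaling. It was the only one of the 9 on the authors' deposited sheet of 336 genes listed as up, and none stood on their sheet of 21 genes listed as down.

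Fstl3, on chromosome 10 from 79777272 to 79782630, encodes a secreted relative of follistatin that also binds activins and myostatin. It rose from a level near the filter and measured 0.796, 1.42 and 0.767 TPM in the control muscles and 6.17, 5.57 and 3.26 TPM in the denervated muscles, with no overlap. The log2 fold change was 1.57 ± 0.23 (SE) on the deposited scale (limma, adjusted p = 0.000399) and 0.97 ± 0.20 after scaling (limma, adjusted p = 0.00855). Without both libraries of mouse 1 the scaled call was lost (limma, log2 fold change 0.84, adjusted p = 0.0974). Its level is uncertain for another reason, since 46.7% of its 31-base stretches also occur in Prss57, a gene on the opposite strand whose end it overlaps and which was not analysed here.

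Fstl1 encodes a secreted glycoprotein named for its follistatin-like domain and made largely by connective tissue cells. It measured 45.8, 86.0 and 53.2 TPM in the control muscles and 111, 95.1 and 71.1 TPM in the denervated muscles. The denervated level was the higher in each mouse, but control muscle 2 lay above denervated muscle 3. The log2 fold change was 0.60 ± 0.25 (SE) on the deposited scale (limma, adjusted p = 0.0472) and -0.29 ± 0.21 after scaling (limma, adjusted p = 0.334), so Fstl1 changed sides with the scale. The deposited call was lost with its direction kept in 8 of 15 alternatives and turned under quantile normalization (-0.062). The 8 include leaving out control replicate 1 or 3 or denervated replicate 1 or 2, with limma adjusted p-values of 0.103 to 0.185. Without both libraries of mouse 1 the log2 fold change was 0.28 (limma, adjusted p = 0.403). In the authors' deposited table the adjusted p of Fstl1 was 0.191.

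Control replicate 2 had the highest control TPM of each of the 9 genes, and the largest scaling factor of the control libraries, 0.789. Its sums of endothelial, pericyte, macrophage and tenocyte markers were also the highest of the control libraries. So was its sum of 6 genes that mark fibro-adipogenic progenitors and fibroblasts (Pdgfra, Ly6a, Cd34, Col1a1, Col3a1 and Lum). The summed level of these 6 was 292 to 773 TPM in control and 558 to 1185 TPM in denervated libraries. None of the 6 was called on both scales, and none was at 0. Col1a1, a collagen chain, measured 104, 322 and 154 TPM in the control muscles and 273, 478 and 172 TPM in the denervated muscles of mice 1, 2 and 3. The 3 adipocyte markers Adipoq, Plin1 and Cidec all rose, with a sum of 10.6 to 33.3 TPM in control and 82.4 to 151 TPM in denervated libraries, and the satellite cell markers Pax7 and Myf5 rose, 2 of 3 tested. Of the myofibre markers, 3 of 4 fell. The part of these cells in the levels of the 9 genes was not tested.

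The receptor genes did not move together. Acvr2a, on chromosome 2 from 48814109 to 48903269, measured 9.38, 11.0 and 9.38 TPM in the control muscles and 42.0, 32.9 and 27.3 TPM in the denervated muscles. Every denervated muscle was above every control muscle, as for 71.4% of all tested genes. The log2 fold change was 1.66 ± 0.18 (SE) on the deposited scale (limma, adjusted p = 8.88e-05) and 0.81 ± 0.10 after scaling (limma, adjusted p = 0.00103), so Acvr2a rose. After scaling its groups still did not overlap, as for 24.3% of all tested genes with denervated values above. Orc4, its neighbour on the opposite strand, holds 7.32% of its 31-base stretches.

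Acvr2b, on chromosome 9 from 119402118 to 119434995, encodes the type II receptor that myostatin binds most tightly. It was close to the lower limit of the table and measured 0.814, 1.31 and 1.06 TPM in the control muscles and 0.504, 0.395 and 0.567 TPM in the denervated muscles. Each denervated muscle lay below each control muscle, as for 4.96% of all tested genes, against the direction of most of the table. It failed the filter on low values and has no call of its own. With no filter, over 13105 genes, the log2 fold change was -0.46 ± 0.18 (SE) on the deposited scale (limma, adjusted p = 0.0387) and -0.84 ± 0.14 after scaling (limma, adjusted p = 0.00424), where 4.28% and 17.6% of genes were called lower. In the authors' deposited table its adjusted p was 0.0241. The depth behind values under 1 TPM is unknown from the files.

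Acvr1b, a type I receptor of the pathway, measured 3.63, 3.84 and 3.22 TPM in the control muscles and 6.72, 6.10 and 4.71 TPM in the denervated muscles. The groups did not overlap, but the log2 fold change of 0.58 ± 0.17 (SE) was below the median of all genes (limma, adjusted p = 0.0124). After scaling it was -0.16 ± 0.12 and not called (limma, adjusted p = 0.332). The deposited call was lost without control replicate 3 or without mouse 1 (limma, adjusted p = 0.0537 and 0.0703).

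The regions just upstream of Mstn, Acvr2a and Acvr2b are shown for the ligand and both type II receptors, of which Acvr2a rose, Mstn was called lower after scaling alone and Acvr2b was not tested. RefSeq windows of the 250 bases before the start site on GRCm38.p6 were read for 7 of the 9 genes. Fst had no window, and Smad2 was not looked up. For Acvr2b the 60 bases inside the GENCODE transcript were left out. Capitals mark matches on either strand to the E-box CANNTG, to CAGAC, a short Smad-binding element, to the TATA box TATAAA and to the CCAAT box. The sequences run 5′ to 3′ on the plus strand.
Mstn, chr1:53061390-53061639: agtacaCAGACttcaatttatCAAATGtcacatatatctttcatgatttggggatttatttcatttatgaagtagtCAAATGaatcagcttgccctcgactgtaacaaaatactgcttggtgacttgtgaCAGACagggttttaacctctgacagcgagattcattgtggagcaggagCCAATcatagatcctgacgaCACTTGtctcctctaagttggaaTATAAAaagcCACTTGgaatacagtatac
Acvr2a, chr2:48813859-48814108: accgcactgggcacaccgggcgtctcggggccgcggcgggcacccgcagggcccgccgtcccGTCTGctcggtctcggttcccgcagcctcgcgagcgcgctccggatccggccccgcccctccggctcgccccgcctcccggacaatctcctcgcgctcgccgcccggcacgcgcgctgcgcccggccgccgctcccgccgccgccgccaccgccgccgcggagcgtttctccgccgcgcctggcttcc
Acvr2b, chr9:119401928-119402117: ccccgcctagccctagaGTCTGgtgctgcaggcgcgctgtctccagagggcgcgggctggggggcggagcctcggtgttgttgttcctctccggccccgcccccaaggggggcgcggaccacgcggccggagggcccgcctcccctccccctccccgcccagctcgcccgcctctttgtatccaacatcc
The Mstn window held 4 E-boxes, 2 CAGAC matches, 1 TATA box and 1 CCAAT box, and no printed match overlaps another. Each receptor window held a single match to CAGAC, read as GTCTG, and none of the others. Of 32851 windows of the same length, 66.2% held an E-box, 42.2% CAGAC, 12.4% the TATA box and 33.8% the CCAAT box, so a match is common. The forkhead motif GTAAACA, in 3.17% of windows, was in none of the 7. The full Mstn window had a GC content of 38.4%, against 82.0% for Acvr2a and 72.8% for Acvr2b and a median of 52.4% over all windows.

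The 2 transducers both had higher values in denervated muscle. Smad3, on chromosome 9 from 63646767 to 63757994, measured 13.8, 16.1 and 15.6 TPM in the control muscles and 53.7, 43.1 and 46.9 TPM in the denervated muscles, with a narrow spread in each group. Its log2 fold change was 1.59 ± 0.15 (SE) on the deposited scale (limma, adjusted p = 3.91e-05) and 0.73 ± 0.09 after scaling (limma, adjusted p = 0.00107), so Smad3 rose. Smad2, on chromosome 18, measured 4.41, 7.50 and 6.87 TPM in the control muscles and 14.6, 17.1 and 14.3 TPM in the denervated muscles. Its groups did not overlap in TPM, but they did after scaling. The log2 fold change of Smad2 was 1.19 ± 0.19 (SE) on the deposited scale (limma, adjusted p = 0.000655) and 0.38 ± 0.20 after scaling, which limma did not call without the mouse as a block (adjusted p = 0.194). With the mouse as a block, the scaled value of Smad2 was called higher (limma, adjusted p = 0.0465).

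**Figure D2:**
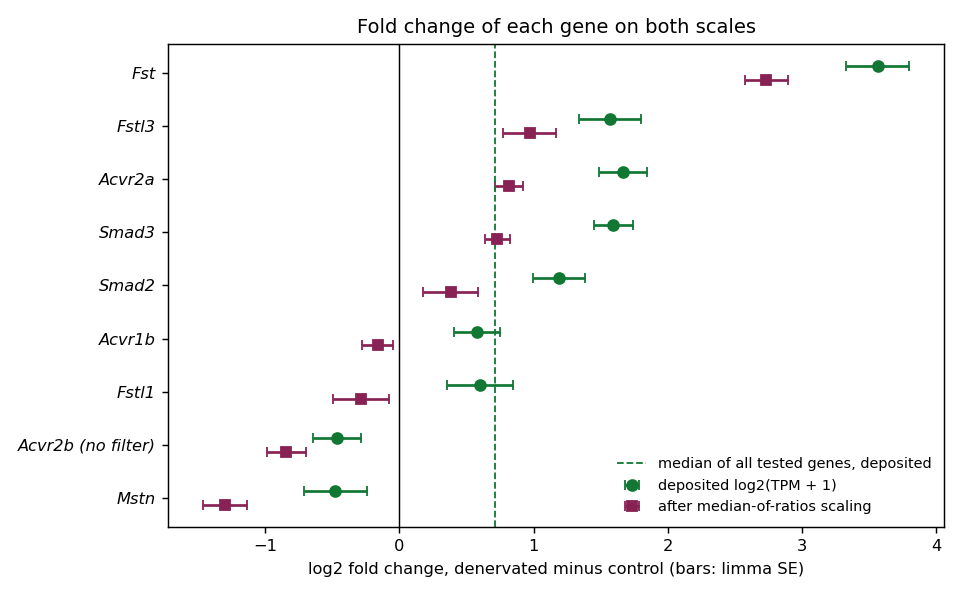
Log2 fold change, denervated minus control, of each gene on the deposited scale and after median-of-ratios scaling, with limma SE bars and a dashed line at the median of all tested genes on the deposited scale (0.71). Fst lies far to the right on both scales, Fstl1 and Acvr1b lie on either side of 0, and Mstn and Acvr2b (fitted with no filter) lie to the left on both.

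The order of levels within a group changed between control and denervated muscle. In control muscle Fstl1 was the most abundant in TPM, followed by Smad3 and Mstn, Acvr2a, Smad2 and Fst, Acvr1b, and last Acvr2b and Fstl3. The ranges of Smad3 and Mstn overlapped, as did those of Smad2 and Fst and those of Acvr2b and Fstl3. In denervated muscle the order was Fstl1, Fst, Smad3, Acvr2a, Smad2, Mstn, Acvr1b, Fstl3 and Acvr2b, and only the ranges of Fstl1 and Fst and of Acvr1b and Fstl3 overlapped. Fst moved from the sixth place to the second, and Mstn from the third to the sixth.

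Ratios of 2 genes within a library are free of any factor common to that library, and 6 such ratios were compared. The ratio of Fst to Mstn was 0.435, 0.340 and 0.415 in control and 8.44, 7.58 and 7.71 in denervated muscle. Mstn TPM thus exceeded Fst in every control muscle and Fst exceeded Mstn in every denervated one, a 20.0-fold difference in the ratio. The mean log2 ratio was -1.34 ± 0.19 in control and 2.98 ± 0.08 in denervated muscle (SD, n = 3; two-sided exact permutation p = 0.1, adjusted over 6 ratios 0.12). With 3 against 3 muscles, 0.1 is the smallest p that this test can give.

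The ratio of Fstl3 to Mstn was 0.0715, 0.0838 and 0.0670 in control and 0.488, 0.693 and 0.453 in denervated muscle, 7.26-fold higher. That of Fstl1 to Mstn was 4.11, 5.07 and 4.65 in control and 8.75, 11.8 and 9.90 in denervated muscle, 2.20-fold higher. All 3 follistatin-family genes thus gained on Mstn in each of the 3 mice. A gain on Mstn is not particular to them, since Mstn ranked 11714 of 12268 tested genes by log2 fold change on the deposited scale. The deposited log2 fold change of Fstl1, 0.60, was below the median of 0.71 over all tested genes.

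Between the type II receptors, Acvr2a exceeded Acvr2b by 11.5, 8.45 and 8.82 times in control and by 83.4, 83.3 and 48.2 times in denervated muscle, a 7.31-fold difference. The ratio of Acvr2a to Acvr1b was 2.59, 2.87 and 2.92 in control and 6.25, 5.39 and 5.80 in denervated muscle, 2.08-fold higher. In these 4 ratios the groups also did not overlap, each with an exact permutation p of 0.1 (adjusted 0.12). The ratio of Smad2 to Smad3 was 0.321, 0.465 and 0.440 in control and 0.271, 0.397 and 0.305 in denervated muscle, and here the groups overlapped (exact permutation p = 0.2, adjusted 0.2). Within mice 1, 2 and 3 the log2 ratio was lower in the denervated muscle each time, with differences of -0.24, -0.22 and -0.53, and this paired difference was not tested.

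**Figure D3:**
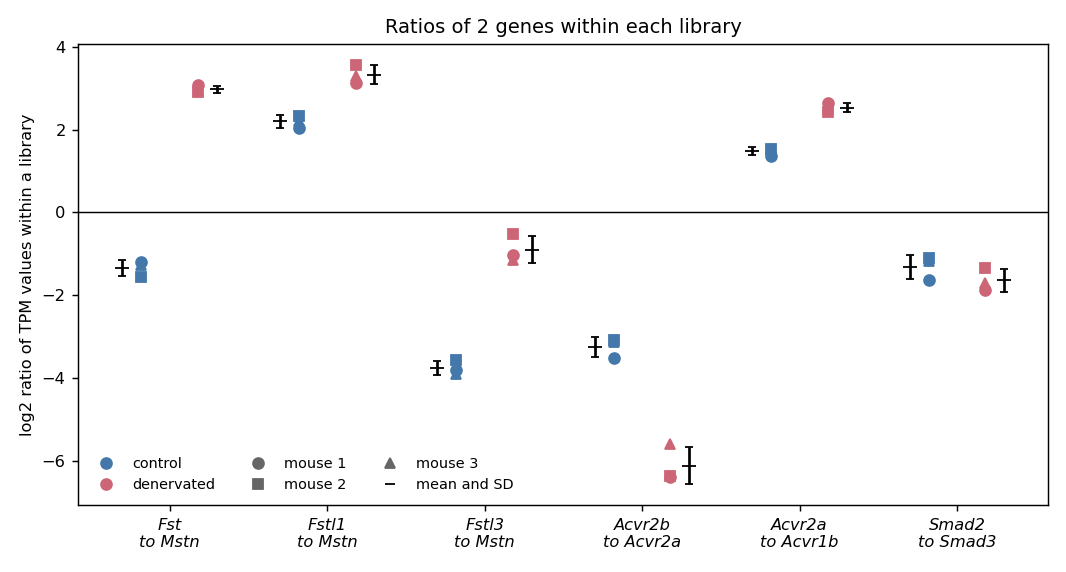
Log2 ratio of the TPM values of 2 genes within each library, for mice 1 to 3, with the mean and SD (n = 3) of control and denervated muscles. The ratio of Fst to Mstn crosses 0 between the groups, the ratio of Acvr2b to Acvr2a drops, and the ratios of Smad2 to Smad3 overlap.

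Other genes of the pathway were read from lists by role. Of 6 tested ligands, 3 rose, namely Tgfb3, Gdf11 and Tgfb1, and none fell, against 15.7% and 4.5% of all tested genes. The same shares stand behind the counts of the lists that follow. Gdf11, the closest relative of myostatin, measured 1.33, 2.02 and 1.06 TPM in the control muscles and 17.4, 12.9 and 6.12 TPM in the denervated muscles, with a scaled log2 fold change of 1.64 (limma, adjusted p = 0.00429). That scaled call was lost without mouse 1 (limma, adjusted p = 0.0559). Its direction was opposite to that of Mstn after scaling. Tgfb3 had means of 7.90 and 49.3 TPM and a scaled log2 fold change of 1.65 (limma, adjusted p = 6.10e-05), and Tgfb1 one of 1.29 (limma, adjusted p = 0.000756). Inhba, which encodes the subunit of activin A and was singled out after its values were seen, measured 2.10 ± 0.141 TPM in the control and 1.69 ± 0.374 TPM in the denervated group (SD, n = 3). It was called lower after scaling (log2 fold change -0.80, limma, adjusted p = 0.00222) but not on the deposited scale (limma, adjusted p = 0.262).

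None of 4 tested genes for the proteases that free the ligands from their propeptides was called on both scales. Furin, a proprotein convertase and the most abundant of them, had means of 3.69 and 7.77 TPM and a scaled log2 fold change of 0.14 (limma, adjusted p = 0.303). Of 6 tested extracellular binders, the latent TGF-beta binding proteins Ltbp1 and Ltbp3 rose. Ltbp1 had means of 9.28 and 40.6 TPM and a scaled log2 fold change of 1.15 (limma, adjusted p = 0.00153), whereas the scaled call of Ltbp3 was marginal (limma, adjusted p = 0.0493) and was lost in 10 of 15 alternatives. Tcap, a sarcomeric protein known to bind myostatin and the most abundant of the list over all libraries, had means of 305 and 399 TPM. Its scaled log2 fold change was -0.51 (limma, adjusted p = 0.0178) against 0.39 on the deposited scale (limma, adjusted p = 0.0627). When the mouse was added as a block, the deposited value was called higher (limma, adjusted p = 0.0131), so the 2 scales then gave opposite calls. The scaled call was lost in 5 of 15 alternatives, among them leaving out mouse 1, 2 or 3 (limma, adjusted p = 0.113, 0.0567 and 0.0539).

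Of 4 further receptors tested, the TGF-beta receptors Tgfbr1 and Tgfbr3 rose. Tgfbr1, a type I receptor, had means of 6.27 and 26.9 TPM and a scaled log2 fold change of 1.11 (limma, adjusted p = 8.87e-05). Tgfbr3, a co-receptor, had a scaled log2 fold change of 0.68 (limma, adjusted p = 0.0125), which was no longer called without denervated replicate 1, mouse 1 or mouse 3 (limma, adjusted p = 0.0501, 0.0753 and 0.0824). Of 13 tested transducers and modulators, 1 rose and 1 fell. Tgif1, a co-repressor of Smads, had means of 1.83 and 11.8 TPM and a scaled log2 fold change of 1.45 (limma, adjusted p = 0.000283). Wwp1, a HECT-type ubiquitin ligase, had means of 38.3 and 22.7 TPM, with log2 fold changes of -0.73 on the deposited scale and -1.60 after scaling (limma, adjusted p = 0.00155 and 4.12e-05).

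Smad4, the shared partner of Smad2 and Smad3, was singled out after its values were seen. It had means of 11.1 ± 0.490 and 24.0 ± 5.27 TPM (SD, n = 3) and a scaled log2 fold change of 0.18 (limma, adjusted p = 0.255). Fkbp1a, which holds type I receptors inactive and is the most abundant gene of this list, had means of 103 and 154 TPM. Its log2 fold change was 0.57 on the deposited scale (limma, adjusted p = 0.0251, a call lost with its direction kept in 4 of 15 alternatives and turned under quantile normalization) and -0.33 after scaling (limma, adjusted p = 0.0874), and when the mouse was added as a block it was called lower after scaling (limma, adjusted p = 0.0393).

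Of 5 tested target genes, Cdkn1a and Pmepa1 rose. Ccn2, Tgfbi and Col1a1 were not called on either scale. Their log2 fold changes were 0.58, 0.24 and 0.71 on the deposited scale and -0.22, -0.59 and -0.19 after scaling. The median of the target list was 0.71 on the deposited scale and -0.19 after scaling. Cdkn1a, which encodes the cell cycle inhibitor p21, measured 311, 226 and 330 TPM in the control muscles and 3373, 2252 and 3375 TPM in the denervated muscles, with a scaled log2 fold change of 2.47 (limma, adjusted p = 0.000207). Pmepa1, a feedback inhibitor of Smad signalling, had means of 4.47 and 21.9 TPM and a scaled log2 fold change of 1.26 (limma, adjusted p = 0.00121). Smad7, another such inhibitor singled out after its values were seen, had means of 0.975 and 2.00 TPM and a scaled log2 fold change of 0.07 (limma, adjusted p = 0.765). Over these 6 lists together, 10 of 38 tested genes rose and 1 fell, against 15.7% and 4.5% of all tested genes, and their median log2 fold change was 0.67 on the deposited scale and 0.02 after scaling, close to the 0.71 and 0.01 of all tested genes.

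**Figure D4:**
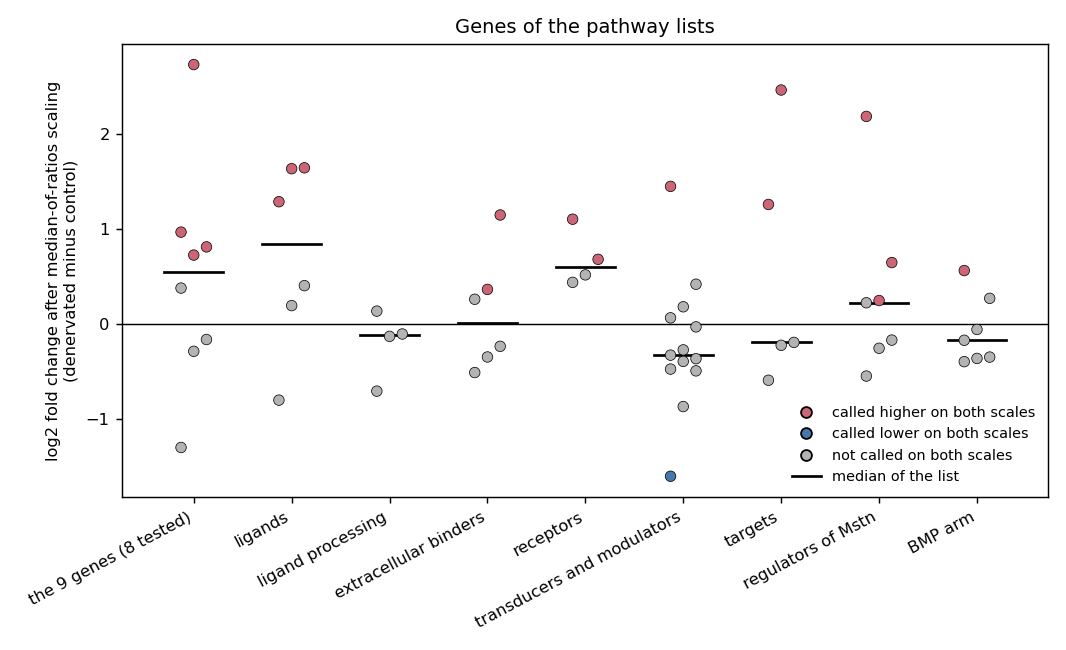
Log2 fold change after median-of-ratios scaling for the tested genes of each pathway list, with the list's median as a line and colours for genes called higher or lower on both scales. The ligands and receptors have medians of 0.85 and 0.60, the transducers and modulators one of -0.33, and the targets one of -0.19.

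The genes whose scaled levels ran most like each of the 9 over the 6 libraries were taken from those with a mean of at least 5 TPM. For Mstn they were Sec61a2, Emcn and Cenpb, with Pearson's r of 0.998, 0.998 and 0.991. Emcn, the gene of a surface glycoprotein of endothelial cells, had a scaled log2 fold change of -0.90. The 4 endothelial markers Pecam1, Cdh5, Kdr and Tek were also called lower after scaling and not on the deposited scale, with a sum of 48.9 to 67.8 TPM in control and 44.9 to 59.9 TPM in denervated libraries. After scaling 18.6% of all tested genes were called lower, as were 3 of 4 myofibre and 2 of 3 pericyte markers. The 3 adipocyte markers and 2 of 3 satellite cell markers were called higher. For Fst they were Ccrn4l, Npnt and Klf5, at 0.999, 0.999 and 0.998. For Acvr2a they were Srebf2, Cers6 and Baiap2l1, at 0.997, 0.996 and 0.996, and for Smad3 they were Zfp346, Lmod2 and Id2, at 0.999, 0.998 and 0.997. For Acvr2b they were Ube2d1, Slc9a3r2 and Rab4a, at 0.998, 0.995 and 0.994. The 6 points of such a correlation fall into 2 groups, the libraries share their scaling factors, and 6326 or 6327 genes were compared for each, so r describes these libraries alone.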

How the data were processed

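Whole-biceps RNA was amplified (Ovation RNA-Seq system V2) and turned into Nextera XT libraries, per the labels' protocols, which state paired-end sequencing (75 bases) to a minimum of 35 to 40 M reads. The submitters' processing notes name kallisto 0.42.1 and mm10. How transcripts were joined to genes, the strand setting and the authors' own test are not given in the sources used here. The authors deposited log2 values per gene and library under headers that name no unit. They were taken as log2(TPM + 1), the unit of kallisto, because back-transformed library totals stayed below the full TPM total. The totals came to 68.8% to 70.4% of it in control and 77.3% to 80.3% in denervated libraries. TPM keeps no depth, and the read count behind a value is unknown. The authors also deposited p-values and adjusted p-values, quoted only where their table is named.

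The limma package (3.58.1, in R 4.3.3) fitted the values (eBayes with a trend, group as the factor), with a pseudocount of 1 and Benjamini-Hochberg adjustment over 12268 genes. Fold changes are on the log2(TPM + 1) scale, which understates those of low genes. The fit was tested on simulated data. The labels number both muscles of a mouse alike, and across genes the residuals of a mouse's pair of libraries correlated at 0.312, 0.183 and 0.411, so the pairing was also fitted, with the mouse as a block. The members and lists were chosen with earlier results of these data known. From each pathway list, up to 3 genes called on both scales with the largest scaled change and the most abundant gene were named. For each member the 3 genes of highest r were taken, leaving out predicted genes and pseudogenes. Inhba, Smad4 and Smad7 were named after their values were seen. Shared 31-base stretches were counted in GENCODE M21 transcripts on GRCm38, and promoter windows come from RefSeq. Inhbb, Tll2, Wfikkn1, Wfikkn2, Bambi, Smad9 and Calcr were not analysed here.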

Additional observations from a re-analysis of the deposited data

How the results depend on the processing

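Fst, Acvr2a and Smad3 kept their direction and their call under all 15 alternatives on each scale, as did Mstn after scaling, with log2 fold changes of -1.50 to -1.14 where libraries were left out. Quantile normalization, which removes the common shift, called 2168 genes higher and 2104 lower on the deposited values, with 4 members higher and 1, Mstn, lower at -1.24. It turned the deposited fold changes of Fstl1 (-0.062), Acvr1b (-0.18), Tcap (-0.086), Fkbp1a (-0.0096) and Bmpr2 (-0.25). A filter of 5 TPM left 5412 genes called higher. With no filter Acvr2b entered, giving 1 member lower on the deposited scale and 2 after scaling.

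Leaving out libraries gave 0 to 1 members lower on the deposited scale. After scaling it gave 938 to 1825 genes higher, with 1005 without mouse 3, and 1322 to 2277 lower, with 1423 without mouse 3. The scaled fold change of Smad7 was -0.017 without control replicate 2, and -0.026 and 0.15 without denervated replicate 2 or 3, and ran from -0.11 to 0.19 with a mouse left out. Ratios of TPM + 1 gave log2 differences of 4.04 for Fst to Mstn, 2.04 for Fstl3 to Mstn and -2.13 for Acvr2b to Acvr2a. Acvr2a to Acvr1b was 0.95 to 1.13 with a mouse left out. The cause was not tested. With the mouse as a block (the replicate block), 8850 and 609 genes were called higher and lower on the deposited scale and 1988 and 2342 after scaling, with 7 and 0 members and then 5 and 1. Precision is limited by 3 mice and an unknown depth.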

Other observations

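Of 7 tested genes reported to act on the Mstn promoter, 3 rose in denervated muscle and none fell, against 15.7% and 4.5% of all tested genes. Myod1, a myogenic transcription factor, rose from 5.22 ± 0.839 to 49.1 ± 4.86 TPM (SD, n = 3), with a scaled log2 fold change of 2.19 (limma, adjusted p = 1.81e-05). Foxo1 and Mef2c, transcription factors active in muscle, had scaled log2 fold changes of 0.65 and 0.25 (limma, adjusted p = 0.0409 and 0.0467), and with the mouse as a block neither was called after scaling (limma, adjusted p = 0.0518 and 0.0776). Their scaled calls were lost in 8 and 12 of 15 alternatives. Mef2c was also the most abundant of the list, with means of 128 and 286 TPM. Nr3c1, the glucocorticoid receptor gene, Foxo3, Creb1 and Cebpd were not called on both scales.

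In the bone morphogenetic protein arm, which shares type II receptors with the activins, 1 of 7 tested genes was called higher on both scales, a share like the 15.7% of all tested genes. This was Bmpr1b, a type I receptor, which passed the filter on low values through its denervated libraries alone, since 0 control libraries reached 1 TPM. It had means of 0.738 and 2.71 TPM and a scaled log2 fold change of 0.57 (limma, adjusted p = 0.0161), a call lost without mouse 1, 2 or 3 (limma, adjusted p = 0.0743, 0.0645 and 0.110). Bmpr2, a type II receptor and the most abundant of the list at 32.1 and 45.6 TPM, had log2 fold changes of 0.48 on the deposited scale and -0.39 after scaling (limma, adjusted p = 0.0137 and 0.0265), and these calls were lost with the direction kept in 2 and 6 of 15 alternatives, while quantile normalization turned the deposited one.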
